A study of Drosophila melanogaster with 32 samples.

Results

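The pyd line is a homozygous P{GT1} insertion line of Drosophila melanogaster whose transposon lies upstream of polychaetoid (pyd). Its 4 arrays, out of 32 in the series, were compared with the 24 arrays of the other 6 insertion lines, mub, crol, CG10990, CG9238, BG00817 and esg. The arrays were chosen by their line label alone. All lines share the Canton S F background, into which the insertions were placed, and the insertion-free host of that background, Control F, has the remaining 4 arrays. Control F did not enter the tests and is given only for reference. Each line was represented by whole flies aged 42 days, with 2 pools of males and 2 pools of females hybridized separately to Affymetrix Drosophila genome arrays. Each genotype is 1 insertion line, so the insertion cannot be told apart from anything else carried by that line. Nothing in the labels says that the pools of a line came from separate cultures, and the p-values measure only the spread between these pools. BG00817 is the name of an insertion for which the labels give no gene.

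Polychaetoid is the fly member of the ZO-1 family of scaffold proteins, which sit under the membrane at cell junctions and tie adhesion proteins to the actin cytoskeleton. In Drosophila it is known for its part in the rearrangement of cells in the developing eye and in the branching of the tracheal tubes that carry air. Comparing the line with other insertion lines, rather than with the host, asks which transcripts set it apart from lines that also carry a P{GT1} element.

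Of 18769 probe sets, 67.3% passed a filter on low signal, and 10311 genes had a kept probe set of their own. Only the pyd arrays brought 68 of the kept probe sets through the filter. Such probe sets had to be higher in pyd, and 7 of them passed the test over both sexes. Values are MAS5 signals, scaled by the authors to a common trimmed mean, and differences are log2 signal of pyd minus the mean of the 6 lines, averaged over the sexes unless a sex is named. The pyd pools resembled each other less than those of any other line and sex. The correlation of log2 signal between replicates was 0.964 in pyd males and in pyd females, against 0.973 to 0.985 in the other males and 0.969 to 0.976 in the other females. Signal at the 3′ end over that at the 5′ end of the array's control transcripts, a sign of RNA integrity and labelling, had a log2 ratio that was 1.03 to 1.98 in the pyd arrays and 1.22 to 2.66 in those of the 6 lines. Its part in the differences below was not tested. Sex-limited transcripts matched the labels: osk, a germline determinant of the ovary, gave 6038 to 6878 in pyd females and 7.27 to 12.1 in pyd males.

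At an adjusted p of 0.05, 2044 probe sets differed between pyd and the mean of the 6 lines over both sexes, 964 higher and 1080 lower. These are 16.2%, 7.63% and 8.55% of those tested, in the same order. In males 1408 (11.1%) differed, in females 1229 (9.73%), and for 446 (3.53%) the difference itself differed between the sexes. The mean of 6 lines can be moved by a single line, so stricter counts were taken as well. Only 122 probe sets (0.965%), 39 higher and 83 lower, differed from each of the 6 lines in the same direction. For 89 (0.704%), 45 higher and 44 lower, the difference passed the test and both pyd arrays of each sex lay beyond all 12 arrays of that sex from the 6 lines. The definitions shared 61 probe sets, 50% of the 122 and 68.5% of the 89, and together covered 150 probe sets and 130 genes, which are called set apart here.

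Other lines stood apart to a like degree. The same count of probe sets beyond all arrays of the other 6 lines was 116 for mub, 109 for CG9238 and 122 for BG00817, and 19 to 58 for crol, CG10990 and esg. Changes past 2-fold were more frequent in pyd, with 235 probe sets (90 higher, 145 lower) against 58 to 190 in the other lines, a count for which no test was made. Control F was set beside these as a description. For 75 of the 89, the Control F arrays of each sex also lay wholly on the same side of the pyd arrays as the 6 lines did. Control F lay wholly on the side of the 6 lines for 790 of the 2044 that differed over both sexes. Among all kept probe sets the count was 1701. For 10 of the 89 (11.2%) the Control F mean was nearer to pyd than to the 6 lines, against 38% of all probe sets.

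Among the 20 leading genes, all beyond every array of the 6 lines, those with the largest falls were a predicted lipase, CG17192, and a predicted serine protease, CG31205, and the largest rise was of a cytochrome P450, Cyp6d2. They were ranked with signals under 47.4, the lowest signal that the filter kept, raised to that value, here called the floor. CG17192 gave 31.2 and 31.4 in the pyd males and 106 and 65.7 in the pyd females. In the 6 lines it ranged from 58.5 to 874 in males (median 203) and from 678 to 7533 in females (median 4775). The pyd arrays were the lowest of their sex without overlap, and the pyd males were under the floor. The log2 difference was -4.19 ± 0.14 (SE, adjusted p = 1.25e-11), which is 43.3-fold in females and at least 5.07-fold in males.

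**Figure D1:**
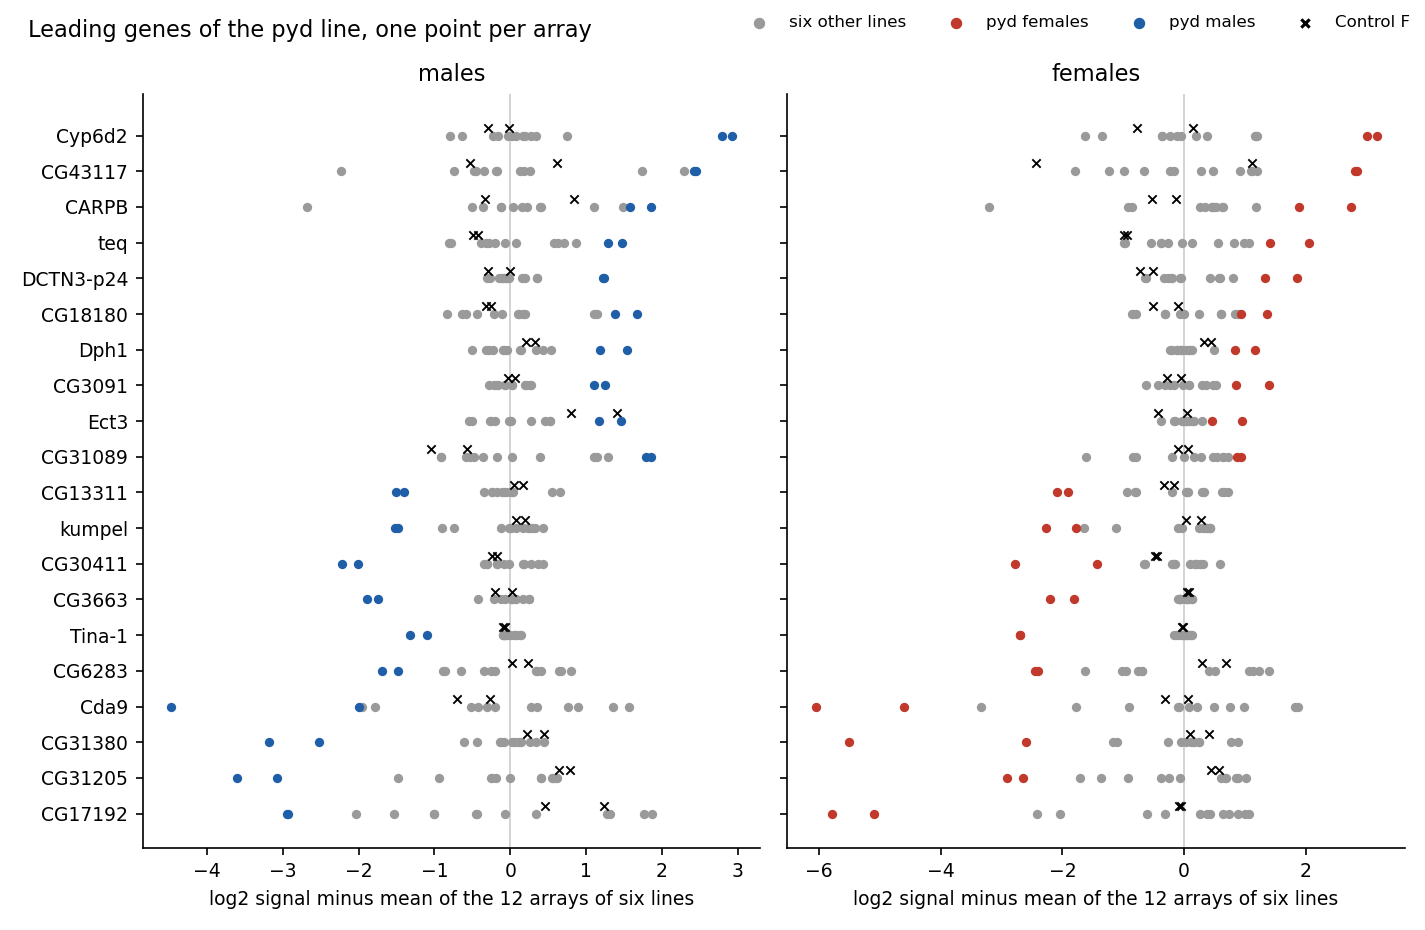
Log2 signal of each array minus the mean of the 12 arrays of the 6 other lines of that sex, for the 20 leading genes named by rule. Coloured points are the 4 pyd arrays, grey points the 24 arrays of the 6 lines and crosses the 4 Control F arrays. For Tina-1 and CG3663 the coloured points lie far to the left of a tight grey group, whereas the grey points of CG43117 and CARPB spread widely.

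CG31205 gave 194 and 281 in pyd males against 848 to 3610 (median 2744), and 133 and 159 in pyd females against 303 to 2023 (median 1230). Both sexes were below every array of the 6 lines, by 8.34-fold (log2 -3.06 ± 0.11, adjusted p = 4.58e-11). CG6283, another predicted lipase, gave 1245 and 1443 in pyd males against 2169 to 6995, and 327 and 316 in pyd females against 559 to 4563, again without overlap. It was 4.02-fold lower (log2 -2.01 ± 0.11, adjusted p = 5.67e-09). Cda9, a chitin deacetylase family member, gave 10.7 and 60.1 in pyd males against 61.3 to 703, and 2.42 and 6.65 in pyd females against 15.9 to 585. A pyd male array lay close under the lowest of the others, and the loss was at least 4.08-fold (log2 -4.28 ± 0.33, adjusted p = 3.54e-07).

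Tina-1 varied little among the 6 lines. It gave 625 and 737 in pyd males against 1464 to 1725 (median 1544), and 397 and 399 in pyd females against 2301 to 2828 (median 2602). The loss was larger in females (log2 -2.70) than in males (-1.21), and that difference passed the test (adjusted p = 9.75e-07). Averaged over the sexes Tina-1 was 3.87-fold lower (log2 -1.95 ± 0.05, adjusted p = 7.78e-13). CG3663 was also without overlap, with 292 and 325 in pyd males against 808 to 1288 and 295 and 223 in pyd females against 956 to 1126. Its fall was 3.76-fold (log2 -1.91 ± 0.07, adjusted p = 6.7e-11).

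The remaining lower genes were CG31380, CG30411, kumpel and CG13311, with falls between 3.31-fold and at least 4.12-fold. CG13311 gave 279 and 301 in pyd males against 621 to 1244, and 83 and 74 in pyd females against 164 to 518 (log2 -1.73 ± 0.08, adjusted p = 7.57e-10). All 4 pyd arrays lay below the others of their sex for each of these 4 genes. For kumpel the probe sets disagreed: of its 5, the one that led gave -1.77 on the log2 scale and the others gave 0.35, -0.29, 0.29 and -0.69.

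Among the higher genes, Cyp6d2 gave 433 and 473 in pyd males against 36.1 to 105 (median 64.7) in the 6 lines. In females it gave 187 and 208 against 7.54 to 52.9 (median 21.9). The pyd arrays were above all others of their sex, by at least 5.32-fold (log2 2.97 ± 0.25, adjusted p = 8.49e-07). DCTN3-p24, a subunit of the dynactin complex that links dynein to its cargo, gave 1113 and 1110 in pyd males against 384 to 607, and 1103 and 1589 in pyd females against 282 to 764. It was 2.66-fold higher without overlap (log2 1.41 ± 0.17, adjusted p = 3.35e-05).

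Dph1, which acts in the synthesis of diphthamide on elongation factor 2, gave 752 and 957 in pyd males against 232 to 480, and 1888 and 1503 in pyd females against 721 to 1183. It was 2.26-fold higher (log2 1.18 ± 0.12, adjusted p = 7.22e-06). CG3091 gave 1184 and 1298 in pyd males against 450 to 660, and 924 and 638 in pyd females against 227 to 506 (2.22-fold, adjusted p = 5.3e-05). In both genes the pyd arrays lay above all others of their sex. Ect3, a beta-galactosidase, gave 1571 and 1288 in pyd males against 393 to 820 and 593 and 419 in pyd females against 235 to 377, or 2.01-fold (adjusted p = 6.89e-06). The Control F males, at 1515 and 990, overlapped the pyd males for Ect3, and the Control F females, at 227 and 317, did not overlap the pyd females.

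For 4 of the higher genes the difference from at least 1 of the 6 lines did not pass the test. CG18180, a predicted serine protease, gave 18696 and 15303 in pyd males and 14002 and 10340 in pyd females, above ranges of 3294 to 12943 and 2989 to 10036 (2.52-fold, adjusted p = 8.23e-08). The females came within a few percent of the highest other array, and the difference passed against 5 lines. CARPB, a carbonic anhydrase-related protein, was at least 3.26-fold higher (adjusted p = 0.00137, 5 lines), CG43117 at least 3.56-fold (adjusted p = 0.000539, 5 lines), and CG31089, a predicted lipase, at least 2.01-fold (adjusted p = 0.000717, 4 lines).

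The gene teq (Tequila, a multidomain serine protease) carried opposite changes on its probe sets. One probe set gave 5333 and 6033 in pyd males against 1245 to 3977, and 2540 and 1618 in pyd females against 309 to 1279, a 2.94-fold rise (log2 1.56 ± 0.09, adjusted p = 5.51e-09). The other gave 6.39 to 10.9 in pyd males and 3.64 to 6.27 in pyd females, where the 6 lines had medians of 287 and 130. It was at least 3.41-fold lower (log2 -4.39 ± 0.21, adjusted p = 7.57e-10). The probe sets of teq thus give it no single direction in these data. Of the genes beyond all other arrays, 12 had a further kept probe set. In 5 of them (ap, kumpel, Prm, scrib and Mob2) a further probe set passed the test in the same direction, in 4 (teq, CG40485, kumpel and jim) in the opposite direction, and in 4 in neither.

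**Figure D2:**
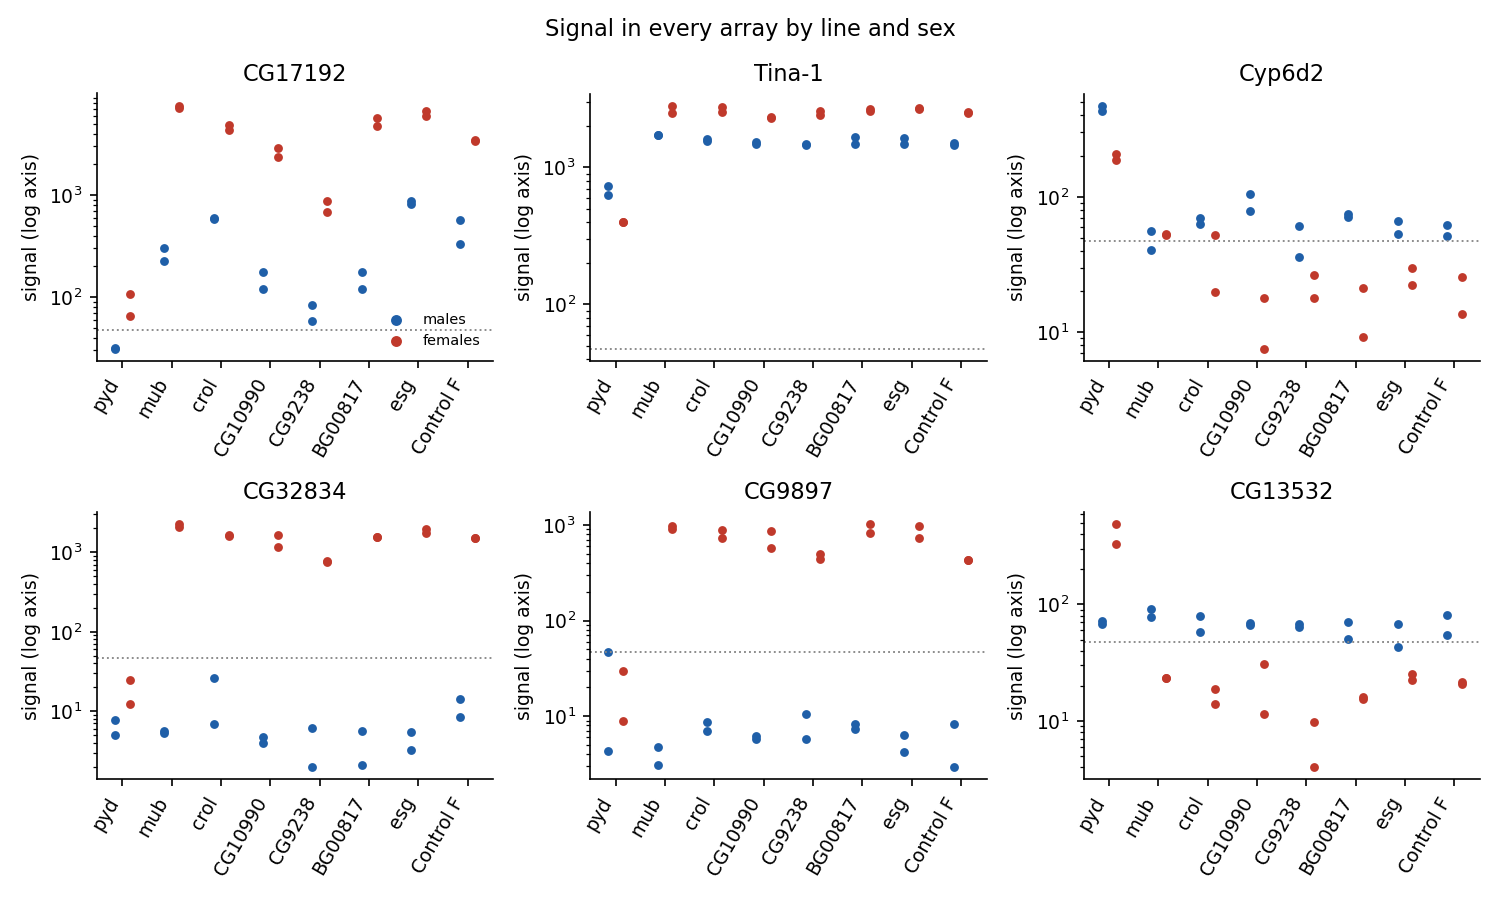
MAS5 signal on a log axis for CG17192, Tina-1, Cyp6d2, CG32834, CG9897 and CG13532, with every array of each line shown as a point, by sex. The dotted line marks the floor of 47.4. CG32834 and CG9897 are at 444 or above in all females of the 6 other lines and at 29.8 or below in the pyd females.

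The genes leading in a single sex were chosen by the same rule within that sex. In females, CG32834 and CG9897, a pair of predicted serine proteases, were nearly lost. CG32834 gave 12.2 and 24.5 in pyd females against 761 to 2264 (median 1632), at least 31.4-fold lower (adjusted p = 1.62e-07). CG9897 gave 9 and 29.8 against 444 to 1018 (median 839), at least 16-fold lower (adjusted p = 1.15e-05). In males CG32834 was under the floor in every line. CG13532 changed the other way in females. It gave 331 and 488 in pyd females where all 12 other females were under the floor (4.01 to 30.6), at least 8.48-fold higher (adjusted p = 9.7e-08). In males it gave 72 and 68 in pyd, inside the range of 43.1 to 91.4, and the sexes differed (log2 -4.57, males minus females, adjusted p = 5.82e-05).

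The adhesion gene rst (roughest), an immunoglobulin-family protein that sorts cells in the pupal eye, was also lower in females. It gave 83 and 138 in pyd females against 261 to 614 (median 385), a 3.67-fold difference without overlap (log2 -1.88, adjusted p = 1.03e-06). Pyd males, at 68 and 57, reached into the range of 61.2 to 100, and the difference between the sexes passed the test (log2 1.52, adjusted p = 0.00206). The gene bma gave 1.86 and 3.54 in pyd females against 50.9 to 91.7, and 84.5 and 57.6 in pyd males against 107 to 175. It was lower in both, by at least 1.39-fold in females and by 0.99 on the log2 scale in males (adjusted p = 0.0024). Over both sexes this probe set gave -2.83, and the further probe set of bma gave -0.36 and did not pass.

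For 3 further genes the arrays nearest to those of pyd belonged to a single other line. UGP, which makes UDP-glucose, gave 737 and 776 in pyd females against a median of 23.1, yet the crol females gave 694 and 606. Drsl4, a drosomycin-like peptide gene, gave 13189 and 12237 in pyd males against a median of 1710, and the crol males gave 10794 and 9316. CG8012 gave 225 and 266 in pyd males against a median of 2146, and the CG9238 males gave 340 and 315. Each passed the test against the mean of the 6 lines (adjusted p = 3.41e-05, 3.43e-08 and 2.28e-08).

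In males CG14137 was higher, with 321 and 279 in pyd against at most 45.4 in the 12 other males, all under the floor, or at least 6.31-fold. The pyd females were at 10.3 and 23.8. CG14137 passed the filter only through the pyd males, so it had to be higher there, and no test is given for it. PGRP-SB1, a peptidoglycan recognition protein, gave 17683 and 13916 in pyd males against 1549 to 9791 (log2 1.88, adjusted p = 0.0271), while the pyd females were unlike each other at 7898 and 2083. Lower in males were CG31832 (527 and 314 against 578 to 2155, log2 -1.88, adjusted p = 3.6e-05) and CG34456 (44 and 53.8 against 91.7 to 247, at least 3.18-fold, adjusted p = 0.0244). In females CG12708 gave 185 and 407 against 9.12 to 178, at least 4.21-fold higher (adjusted p = 0.000572).

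**Figure D3:**
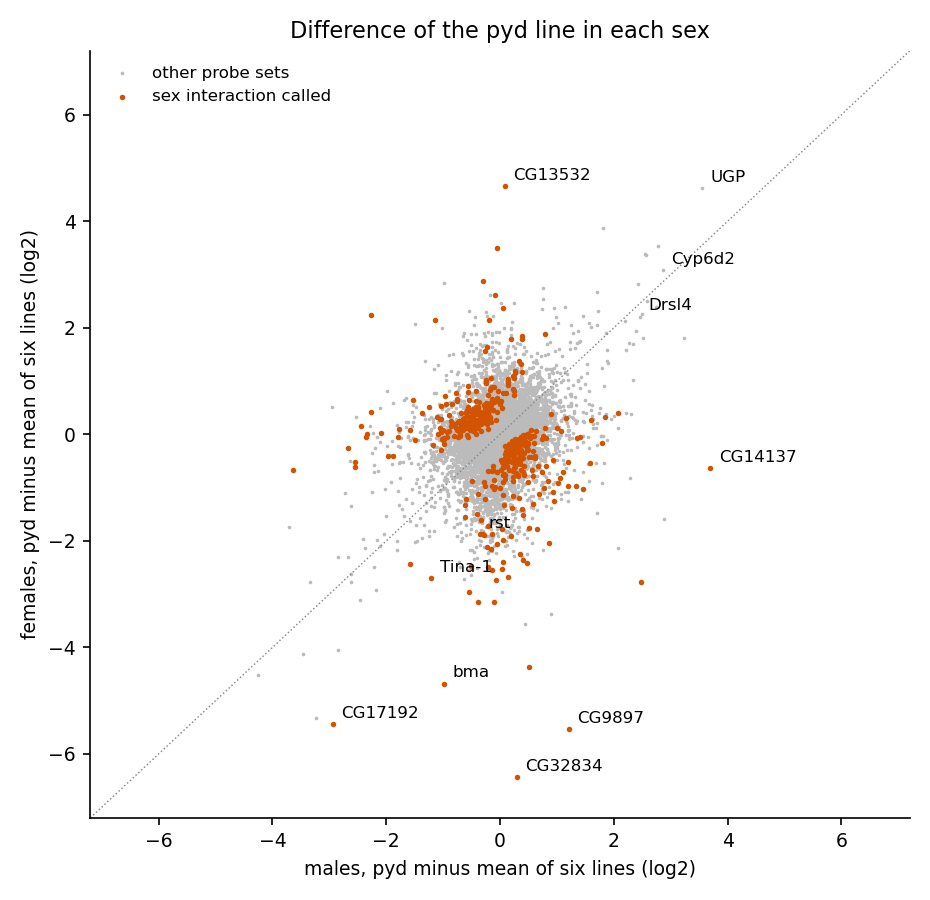
Log2 difference of pyd from the mean of the 6 lines in males against that in females, 1 point for each kept probe set. Orange points are the 446 for which the sexes differed by the interaction test, and CG32834 and CG9897 lie where the female difference is below -5.

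The gene pyd itself was lower in the line named for it, on 1 of its 4 kept probe sets. That probe set gave 944 and 789 in pyd males against 862 to 1224 (median 1027), and 843 and 1212 in pyd females against 1550 to 2261 (median 1949). The pyd females were the lowest of all females without overlap, and the males overlapped. The log2 difference was -0.58 ± 0.08 (adjusted p = 0.000132), -0.89 in females (adjusted p = 9.23e-05) and -0.28 in males (adjusted p = 0.129), and the sexes differed by 0.61 (adjusted p = 0.0463). It passed against all 6 lines but not with line as a random block (adjusted p = 0.0657). The other 3 probe sets gave -0.20, -0.02 and -0.13, with adjusted p of 0.252, 0.952 and 0.646.

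The genes beside pyd on its chromosome arm passed the test at about the share of all genes, which was 16% with 1 probe set per gene. Of the 5 measured genes on either side, CG8369 and ScsbetaA, a subunit of succinyl-CoA synthetase, were each 0.20 higher on the log2 scale (adjusted p = 0.0235 and 0.0243), and the other 8 did not pass. Among the 50 measured genes nearest to pyd, 7 passed (14%) and 0 besides pyd were set apart. Of the genes named for the other insertions, mub, Pdcd4 (CG10990), Gbs-70E (CG9238) and esg gave differences of 0.13, 0.07, 0.25 and -0.04 in pyd, and none passed over both sexes (adjusted p = 0.411, 0.754, 0.0522 and 0.845). Gbs-70E passed in females (0.40, adjusted p = 0.0411). The mean it was set against includes the CG9238 line, which is named for this gene. The part of that line in the difference was not tested. Against single lines, over both sexes, Gbs-70E passed against 1 only. Its geometric mean in females was 5588 in pyd, 4245 in the other insertion lines and 5652 in Control F.

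Genes set apart in the pyd line were counted along the chromosomes, with no test of their spread. The X held 28 of 1627 measured genes, 2L 8 of 1953, 2R 26 of 2088, 3L 29 of 1989, 3R 39 of 2541 and chromosome 4 0 of 61, against 1.27% of all. In 208 consecutive stretches of 50 measured genes, 124 had 0 genes set apart, and 3 stretches with 5 or more held 20 of the 130 (15.4%). A neighbourhood of this kind was seen in other lines. By the genes beyond all other arrays alone, the fullest stretch held 5 in pyd, 5 in crol, 5 in CG9238 and 8 in BG00817. In pyd this was the stretch on 3R that starts at CG31089. Genes set apart by the wider definition were not counted in the other lines. The 3 stretches, and the genes named from them in the next paragraph, were singled out after their values were seen.

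The fullest stretch by genes set apart, on 2R from Cyp6d2 to PPO3, held 9: Cyp6d2, stl, CG9825, CG13532, EMC8-9, CG32834, CG9897, CG9896 and DCTN3-p24. Its genes went both ways. CG9825, a phosphate transporter-like gene, was 3.79 lower on the log2 scale (log2 -3.79 ± 0.17, adjusted p = 3.43e-10), and Cyp6d2 and DCTN3-p24 were the rises described above. On 3R, from CG31089 to CG42789, the 6 genes were CG31089, kumpel, CG43117, Pdf, plum and scrib. Here scrib, a polarity scaffold of epithelial junctions, changed by -1.27 (adjusted p = 8.84e-06), and its other probe sets gave -0.10, -0.11, -0.61 and -1.49. The changes were -2.55 in plum (adjusted p = 5.88e-07) and 0.86 in Pdf, the neuropeptide of the clock neurons (adjusted p = 0.00169). On 3L, from CG32075 to CG33489, the 5 genes were SuUR, Elo68alpha, NaPi-III, CG7607 and Mob2. The pyd gene lay in none of the 3 stretches.

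**Figure D4:**
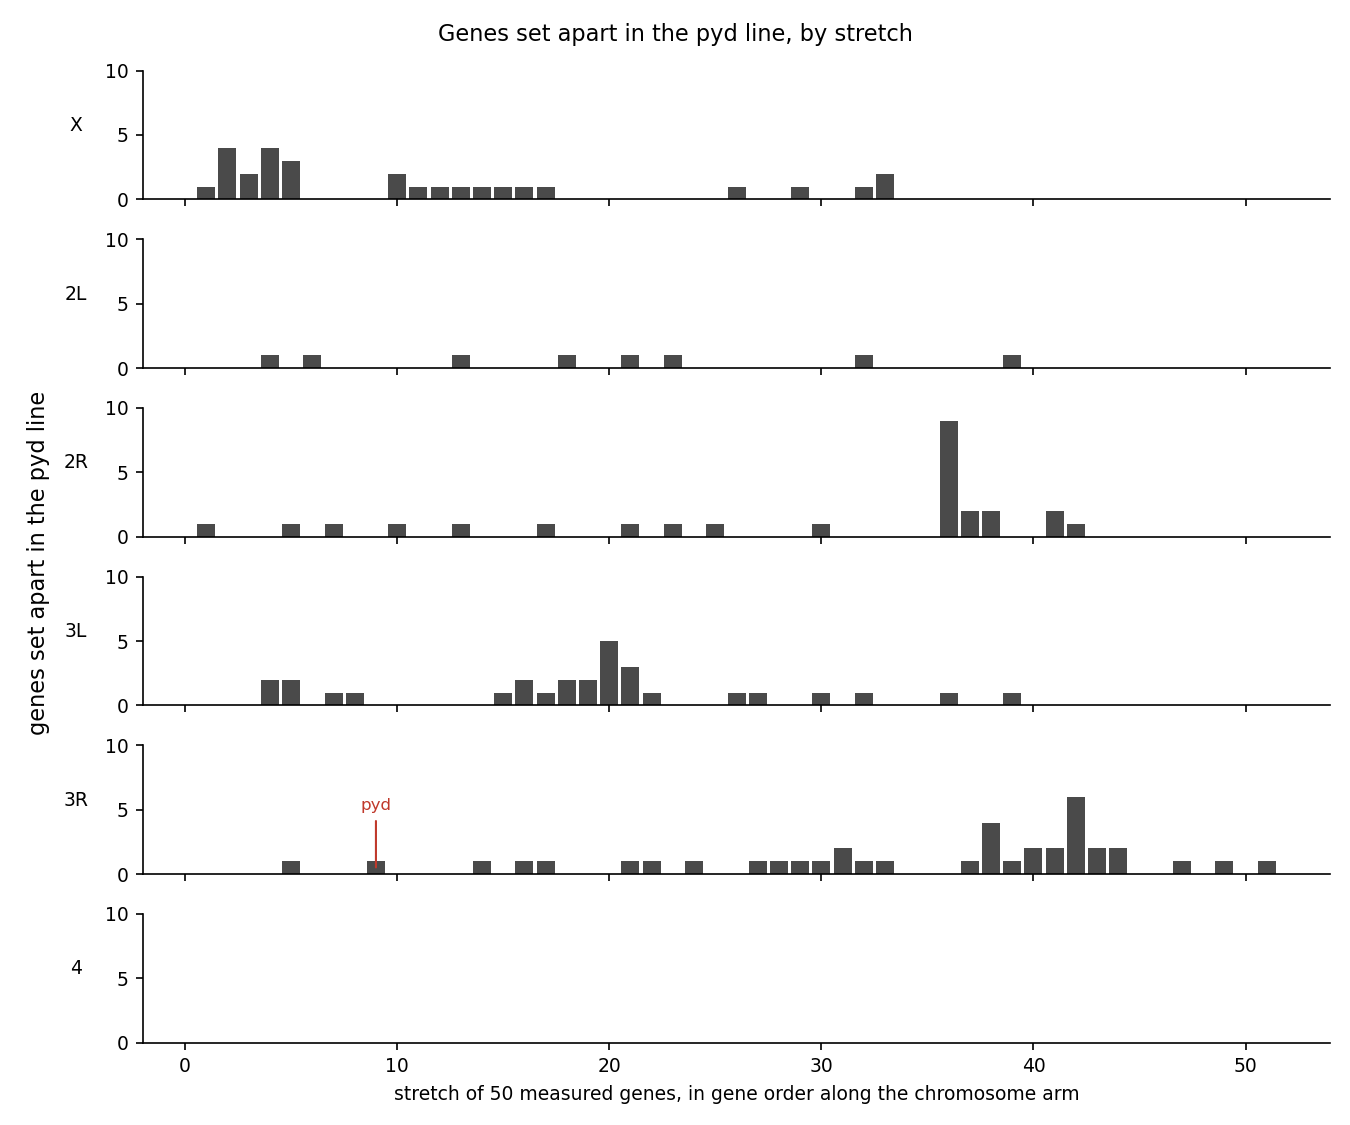
Number of genes set apart in pyd in each stretch of 50 measured genes, in gene order along each chromosome arm, with the position of pyd marked on 3R. The tallest bars stand at 9 on 2R, 6 on 3R and 5 on 3L, and 124 of the 208 stretches are at 0.

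Gene lists were described by 1 probe set for each gene, the brightest, for which 16% of all 10311 genes passed and the median difference was -0.01. Antimicrobial peptides had the largest share of rises among the 13 lists described here. These secreted peptides are made mainly by the fat body after infection. Of 14 measured, 11 rose and 0 fell (78.6%), and the list median was 0.61. CecB, a cecropin, gave 803 to 1103 in pyd males and 231 to 627 in pyd females, against medians of 160 and 110 in the 6 lines (log2 1.99, adjusted p = 0.000596). BomT3, a bomanin, gave 4533 to 4587 in pyd males against 1461 to 3737, and 1171 to 1493 in pyd females against 560 to 1775 (log2 0.84, adjusted p = 4.11e-05). The males stood clear and the females did not, and both genes passed against all 6 lines. DptB (2.37, adjusted p = 0.0273) and Mtk (1.83, adjusted p = 0.0268) rose over both sexes. Each of these passed against only 3 of the 6 lines, and neither passed in males or in females alone. In males the geometric mean of DptB was 10855 in pyd, 1932 in the 6 lines and 6500 in Control F. That of Mtk was 13167, 4434 and 12279, in the same order. In females DptB gave 3635, 764 and 571, and Mtk 7668, 1796 and 1153.

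The antimicrobial median of each array, taken from the mean of the 7 lines in its sex, was 0.585 and 0.607 in the pyd males, above the 12 other males (-0.499 to 0.298). It was 0.779 and 0.303 in the pyd females, and the other females (-0.668 to 0.569) overlapped. In Control F this median was 0.283 and 0.372 in males and -0.707 and -0.549 in females. The mub line had the next highest median, at 0.32 against the other 6. Of 11 listed fat body genes only 4 were measured, and 3 of these rose (75%, median 0.37). They were Tsf1, apolpp and Apoltp, which encode transferrin and lipid carriers. Apoltp rose in females (0.80) but not in males (-0.04). The fat body marker Lsp2 did not pass (-0.06, adjusted p = 0.931). The mub line had a fat body median of 0.38 against its own other 6 lines, next to 0.37 in pyd. Blood cell genes gave 0 of 13. The part of the amount of fat body in this result was not tested. In whole flies a change in the number of cells of a type and one in RNA per cell cannot be told apart. The count for antimicrobial peptides fell to 5 without pyd female replicate 1, 6 without male replicate 2 and 8 without male replicate 1, to 7 without CG9238 or without esg, and to 5 with the additive model. With line as a random block, 0 genes passed in this list and in the fat body, ribosomal, trypsin, Jonah, junction, tracheal, phototransduction and glycolytic lists.

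Drosomycin-like peptides gave 3 rises and 1 fall among 5 genes. Neither of the 2 Turandot stress peptide genes passed, although their median was 1.45.

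Cytosolic ribosomal proteins rose in 27 of 41 genes and fell in 2 (70.7%, median 0.26), with 26 rises in males and 0 in females. This list did not keep its direction: with quantile normalization 1 rose, 4 fell and the median was -0.02, and without pyd female replicate 1, 8 rose. The control transcript ratio was 1.981 and 1.591 in pyd males, inside the range of 1.219 to 2.155 of the other males. It was 1.615 and 1.027 in pyd females, against 1.465 to 2.661. The pyd replicates were also less similar, as given above, and the part of either in the result was not tested. Mitochondrial ribosomal proteins gave 3 rises and 2 falls among 69, and respiratory chain genes 3 and 3 among 72.

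Of 10 digestive trypsins 4 rose (40%) with a median of -0.03, and 2 rose without the crol line. The gene alphaTry (0.31, adjusted p = 0.00281) passed against 4 lines, and its difference was -0.027 under quantile normalization. Of the others, betaTry (1.25), epsilonTry (1.05) and lambdaTry (0.83) each passed against the crol line and no other, and epsilonTry and lambdaTry turned to -0.26 and -0.34 without that line. Jonah proteases, a family of gut serine proteases, gave 5 rises and 0 falls among 14 (35.7%, median 0.29). In males 8 rose with a median of 0.48, and in females 0 did. The 5 rises became 2 without pyd female replicate 1, 3 without male replicate 1, and 1 each with quantile normalization and with the additive model. The median of Jonah proteases per array was 0.404 and 0.464 in pyd males, above the other 12 males (-0.272 to 0.0444), and it was inside the range of the other females. The mub line, set against its own other 6 lines, had a median of 0.37.

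Junction genes, chosen as partners of Polychaetoid or as parts of epithelial junctions, gave 0 rises and 6 falls among 33 (18.2%), with a median of -0.03, close to the background of 16%. Besides pyd, the falls were in rst (-1.11) and its relative kirre (at least 1.32-fold, adjusted p = 0.0049, with both pyd females under the floor), the septate junction genes Nrx-IV (-0.76, adjusted p = 0.0415) and mesh (-0.58, adjusted p = 0.00482), and the polarity kinase aPKC (-0.69, adjusted p = 0.0266). Tracheal genes gave 0 rises and 3 falls among 13 (23.1%, median -0.16), with dpp at -0.41, the FGF ligand bnl at -0.38 and Mipp1 at -0.35. The CG9238 line had a lower tracheal median, -0.23 against its own other 6 lines. When 1 pyd array was left out, the junction list gave 2 to 9 falls and 0 to 2 rises, and the tracheal list 0 to 5 falls. Without pyd female replicate 1 the junction list had 2 rises and 2 falls.

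Phototransduction genes fell in 7 of 16 and rose in 1 (50%, median -0.18). The falls included Galphaq (-0.62, adjusted p = 0.000165), the G protein that couples rhodopsin to phospholipase C. The other kept probe sets of Galphaq gave -0.24 and -0.13. Further falls were in the scaffold inaD (-0.58, adjusted p = 0.000332) and the channel trpl (-0.44). The median for phototransduction in Control F was -0.22 against the mean of the 7 insertion lines, and in CG9238, against the other 6, also -0.22. Leaving out 1 pyd array gave 3 to 8 falls. Per array the median was -0.253 and -0.202 in pyd females, inside the other females' range of -0.383 to 0.439.

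**Figure D5:**
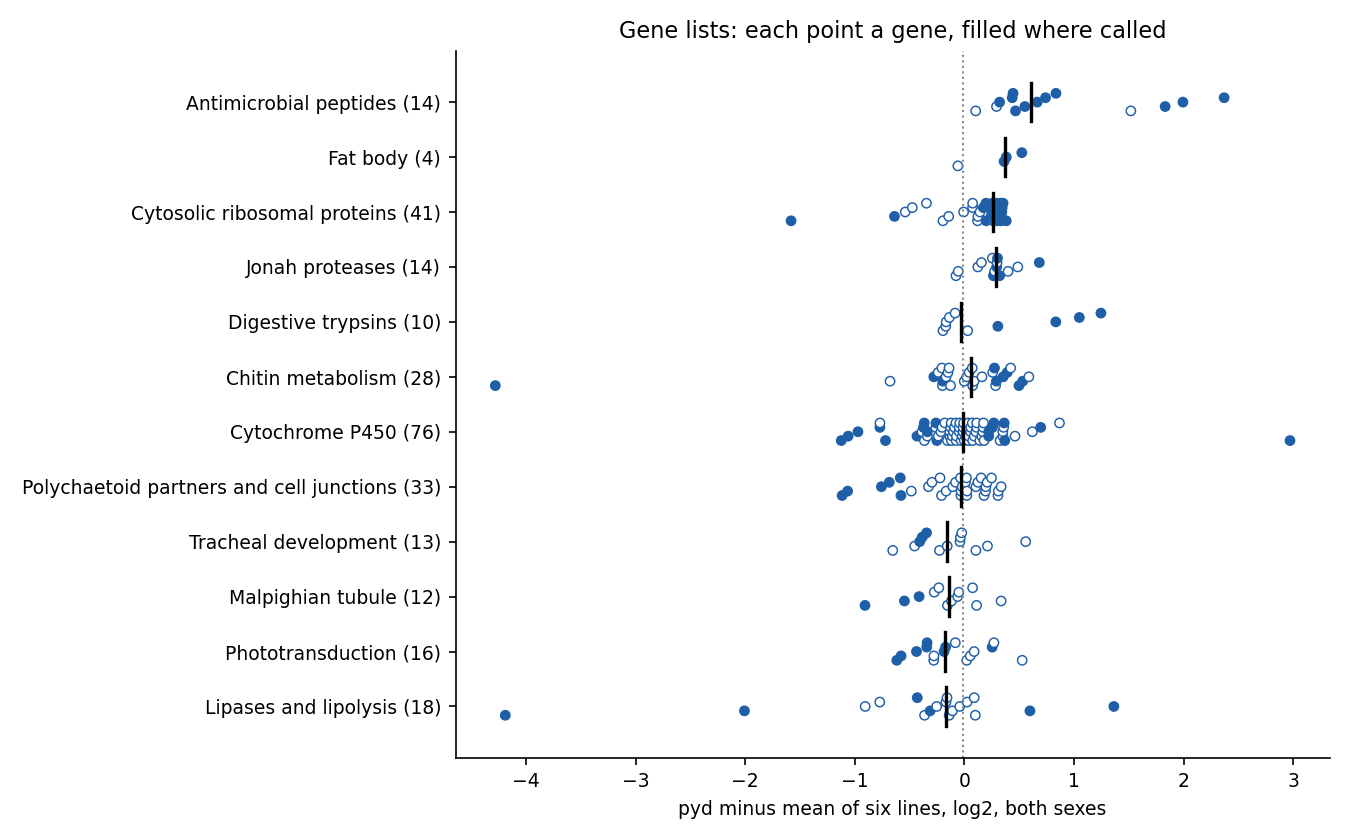
Log2 difference of pyd from the 6 lines, averaged over the sexes, for each measured gene of 12 gene lists. Filled points passed the test, bars are list medians and the dotted line is the median of all genes, -0.01. The antimicrobial points all lie above 0, and 11 of the 14 are filled.

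Lipase, chitin and P450 lists held some of the largest single changes, in both directions. Of 18 lipase and lipolysis genes, 2 rose and 4 fell (33.3%, median -0.16), among them CG17192 and CG6283. The lipase median of the CG9238 line was -0.19 against its own other 6 lines. Chitin genes gave 6 rises and 3 falls among 28 (32.1%, median 0.06), with Idgf5 (0.53), Idgf1 (0.50) and the chitinase Cht11 (0.39) against the fall of Cda9. Chitin rises became 3 without pyd female replicate 1, and 1 fall alone was left with line as a random block. Cytochrome P450 genes gave 8 rises and 11 falls among 76 (25%, median -0.01), where Cyp6d2 stood against Cyp4d8 (-1.06) and Cyp4d1 (-0.97). Glycolytic, trehalose and glycogen genes gave 5 rises and 0 falls among 18 (27.8%, median 0.09), including UGP, the hexokinase Hex-C (0.54), Pgm1 (0.33) and glycogen phosphorylase, Glyp (0.28). Over all 22 kept probe sets of these genes, 6 rose and 2 fell. The list median was 0.16 in males and -0.01 in females, and 0.01 over both sexes with quantile normalization.

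Malpighian tubule genes, markers of the fly's renal organ, gave 0 rises and 3 falls among 12 (25%, median -0.14). The fall in salt, a tubule transporter gene, was -0.91 (adjusted p = 3.84e-06), with the pyd arrays beyond all others of their sex. The others were Oatp58Db (-0.55), an organic anion transporter, and the phosphatase Alp4 (-0.41). In CG9238 the tubule median was lower than in pyd, at -0.25 against its own other 6 lines. Among muscle genes, 4 of 20 rose and 2 fell. Paramyosin, Prm, a core protein of invertebrate thick filaments, fell (adjusted p = 1.78e-07), from 4395 in the 6 lines to 1471 in pyd males and from 1684 to 546 in pyd females (geometric means). Among reproductive lists, eggshell and ovarian germline genes gave 1 fall among 27, testis genes 1 rise among 24 and yolk proteins 0 of 3. Seminal fluid proteins gave 1 rise and 2 falls among 25 (12%, median -0.30), with 4 falls in females and 4 genes for which the sexes differed. The list median was 0.01 in males and -0.56 in females. These transcripts are male-limited. In females SP (2.75 to 3.01 in pyd, 1.74 to 36.4 in the 6 lines), Acp26Ab, Acp36DE and Acp53C14a were all under the floor. The female differences of such genes rest on values with no reliable order.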

How the data were processed

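The deposited values were MAS5 signals of 32 arrays, a signal per probe set that the authors computed from the probe intensities and scaled to a trimmed mean of 500 on each array. The MAS5 version is not given in the sources used here. Control probe sets of the array (183) were left out, and a filter value was taken for each probe set, the highest over the 16 groups of line and sex of its lower replicate. Probe sets were ranked by it, and as many were kept as the study's own analysis used, 67.3%. Signals were taken to log2. One model of line by sex was fitted to 28 arrays with limma 3.58.1 in R 4.3.3, with Control F left out. Contrasts set pyd against the mean of 6 lines, and p-values were adjusted by the Benjamini-Hochberg method over all kept probe sets. Where the dim group lay under the lowest kept value, 47.4, the fold is a bound against it. Data were simulated for pyd against the 6 lines over both sexes, on all kept probe sets. There the fit recovered 80% of 100 changes of 2-fold and 97% of 100 of 4-fold, with 7 false calls. The simulated pyd line had the mean of the 6 lines and only the spread between pools. It had no line difference besides the added changes, so the false calls do not measure ordinary variation between lines. The named genes were the 10 higher and 10 lower with the largest change among those beyond all other arrays, 3 in each direction in each sex, the 3 smallest interaction p-values, up to 4 per list, and pyd with its neighbours. Members and gene lists were chosen with earlier results of these data known. Of the kept probe sets, 11145 had 1 gene symbol, 342 several and 1149 none. Alternatives were quantile normalization, centring, other filters and offsets, an additive model, a random block for line, a replicate block, and leaving out arrays or lines. The number of arrays limits the precision. The genome build is not given in the sources used here, so gene order came from the reference annotation and no coordinates are given.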

Additional observations from a re-analysis of the deposited data

Results flagged for a closer look

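For 11 named genes the difference of pyd from the 6 lines was not the same in males and females by the interaction test. CG14137 is counted among them but is not taken as tested. As male minus female log2 difference these were CG9897 (6.74), CG32834 (6.73), CG14137 (4.33), bma (3.70), CG17192 (2.49), rst (1.52), Tina-1 (1.49), CG6283 (0.85) and pyd (0.61) above 0. CG13532 (-4.57) and CG31832 (-1.47) were below 0. CG9897, CG32834, CG14137, CG13532, bma and CG17192 rest in part on signals under the floor of 47.4, in pyd, in 1 sex or in the other lines, so that the size of those differences depends on values with no reliable order. CG14137 passed the filter only through the pyd males, so it had to be higher there. Its value of 4.33 is therefore no test of a difference between the sexes.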

How the results depend on the processing

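The count over both sexes was 2044 and fell to 611 with an additive model that took the 6 lines as 1 group, and to 78 (29 higher, 49 lower) with line as a random block (correlation 0.179), where 1475 had an unadjusted p under 0.05 against 3731 otherwise. The count beyond all other arrays was then 54. With 1 line of 7 as the unit the smallest exact p is 0.143. The interaction count was 202 with no filter, and its share of positive values moved from 53.1% to 71.3% with centring within sex. Leaving out 1 array gave 1090 to 2657 over both sexes, 421 to 1721 in males, 652 to 1735 in females, 268 to 888 for the interaction, 93 to 475 against each line and 88 to 465 beyond all arrays. Without pyd male replicate 1 these were 810 for the interaction, 350 against each line and 202 beyond all arrays. Without pyd male replicate 2 they were 1149 over both sexes, 421 in males and 268 for the interaction. Without pyd female replicate 1 they were 1090 over both sexes, 652 in females and 888 for the interaction, and without pyd female replicate 2, 475 and 465 for the stricter counts. Without the mub line the interaction gave 221, each line 193 and beyond all arrays 168. Without crol the last was 134 and the interaction 291, without CG9238 the last was 159, and without esg the interaction was 175. The causes were not tested, apart from fewer lines making the stricter definitions easier to meet. With the replicate block the counts were 1952, 1340, 1137, 372, 116 and 89, and no count moved by over 1.5 times. The numbers do not pair the samples (correlation of deviations -0.111 to 0.237, median -0.003). Of the 20 leading genes, all passed under every alternative except the random block, where CARPB (adjusted p = 0.197), CG18180 (0.0577) and CG31089 (0.18) did not, and the pyd probe set gave 0.0657. For 94 named probe sets under 44 settings, 3923 outcomes kept their direction and call, 194 lost the call and 14 gained it. Directions turned for epsilonTry (-0.26) and lambdaTry (-0.34) without the crol line and for alphaTry (-0.027) under quantile normalization.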
